A study of Mus musculus with 2 samples.

Results

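The smooth muscle contractile genes described here are 9 genes of 31053 in the count tables: Acta2, Tagln, Actg2, Cnn1, Myh11, Des, Synpo2, Myl9 and Tpm2. They were chosen by symbol, with earlier results of these data in view, so their levels are a description and no test is made of them. They were measured by single-cell RNA sequencing of the genital tubercle, from which the external genitalia of both sexes develop, in wild-type C57BL/6 mice at embryonic day 14.5 (Theiler stage 22). There is 1 library for males and 1 for females, both from pools of 3 embryos out of 2 litters, so sex and library cannot be told apart. Cells were droplet barcodes with 2000 or more unique molecular identifiers (UMIs, counts of captured RNA molecules), 500 or more genes and a mitochondrial share of UMIs of at most 10%. This left 17254 male and 18711 female cells with a median of 5170 and 5242 UMIs, and 82 barcodes occurred in both libraries. Levels are counts per 1000000 UMIs (CPM), from the UMIs summed over a group of cells in a library. Intervals are exact 95% intervals that cover counting error only. UMIs of several of these genes came from a few cells each, so the spread between cells adds to that error, and with 1 library per sex no difference has a replicate check.

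Smooth muscle contracts by the sliding of actin filaments along smooth muscle myosin. Acta2 and Actg2 encode smooth muscle actins, Myh11 the smooth muscle myosin heavy chain, and Myl9 a regulatory myosin light chain. Tpm2, Tagln and Cnn1 encode the actin-binding proteins β-tropomyosin, transgelin and calponin, Des encodes the intermediate filament protein desmin, and Synpo2 an actin-binding protein of the Z-disc. In development Acta2 and Tagln are known as early genes of the programme and Myh11 as a late and more restricted one, and Myocd encodes myocardin, a coactivator of serum response factor that drives it. Acta2 and Des are also known from developing skeletal muscle.

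Cells were clustered without the 9 genes and named from 12 other smooth muscle markers, among them Myocd, Mylk and Ppp1r14a. Under a single round of clustering no cluster took the smooth muscle name. A second round within the mesenchyme-like clusters, added after the data were seen, gave a smooth muscle-like class of 271 male cells (1.57%, interval 1.39 to 1.77) and 136 female cells (0.727%, interval 0.610 to 0.859). Of 7 pericyte markers 3 (male) and 4 (female) were at 0 in smooth muscle-like cells, among them Rgs5, Higd1b and Ndufa4l2 in both libraries. Abcc9 was at 8.49 and 3.76 CPM there, against 0.594 and 0.513 in the remaining mesenchyme-like cells. The 7 markers summed to 39.0 and 32.0 CPM, against 31.7 and 28.5 in remaining mesenchyme-like cells and 67.2 in the cluster described next, and their part in the levels below was not tested. Of 13 skeletal muscle markers 10 were at 0 there in each library. One more cluster, led by Acta2, Tagln, Actg2 and Col9a3, held 195 male cells (1.13%) and 0 of 18711 female cells, which allows a share of up to 0.0160%. It did not take the smooth muscle name, was set apart because of its Acta2 and Tagln levels, and is called the Acta2-led cluster. All 9 mesenchyme markers were detected in it with 10 or more UMIs, and its summed smooth muscle markers were at 479 CPM, against 930 and 690 in male and female smooth muscle-like cells and 201 and 188 in the remaining mesenchyme-like cells. The remaining mesenchyme-like cells were 16057 male and 17857 female cells in 18 clusters.

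Acta2 was highest in 3 groups of cells. In smooth muscle-like cells it stood at 713 CPM in the male library (interval 665 to 763) and at 92.1 in the female library (interval 68.1 to 122). The Acta2-led cluster held 1793 CPM in the male library. Skeletal muscle-like cells, 36 male and 62 female, held 1569 and 1969. Of these cells 47.2% male and 12.9% female were among the highest doublet scores, against 10.8% of the Acta2-led cluster and 13.3% and 14.6% of the remaining mesenchyme-like cells. The remaining mesenchyme-like cells were far lower, at 19.4 male and 12.1 female, and immune-like cells held 3.67 and 0. Acta2 was thus not limited to smooth muscle-like cells in this tissue. In the female library 60.2% of its UMIs came from the 62 skeletal muscle-like cells and 1.29% from smooth muscle-like cells. In the male library the Acta2-led cluster held 46.4% of Acta2 UMIs, the remaining mesenchyme-like cells 25.3%, skeletal muscle-like cells 14.9% and smooth muscle-like cells 11.2%.

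Actg2, the enteric smooth muscle actin, and Cnn1 were the most restricted of the genes in the male library. Actg2 stood at 60.3 (male) and 13.2 (female) CPM in smooth muscle-like cells and at 216 in the Acta2-led cluster. In the remaining mesenchyme-like cells it was at 0.778 and 0.308, and in skeletal muscle-like cells at 0 and 0.860. Cnn1 stood at 50.9 and 3.76 in smooth muscle-like cells, the second from 2 UMIs, and at 54.8 in the Acta2-led cluster. In the remaining mesenchyme-like cells it was at 0.696 and 0.461, and the female ratio had an interval that included no difference. No other class of cells exceeded 1.40 CPM of either gene. The Acta2-led cluster held 73.7% of male Actg2 UMIs. In the female library 36 of the 44 Actg2 UMIs and 54 of the 58 Cnn1 UMIs lay in the remaining mesenchyme-like cells. Those were 95.4% of female cells. Of those 36 Actg2 UMIs cluster 5 held 17 and cluster 3 held 9, and 2 of the 19 cells with a UMI held 12.

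Tagln and Myl9 were shared with glia and neural crest-like cells, and Tagln with other classes too. Tagln stood at 133 (male) and 32.0 (female) CPM in smooth muscle-like cells and at 1237 in the Acta2-led cluster. Glia and neural crest-like cells, 59 male and 78 female, held 359 and 422, above the smooth muscle-like level of either library. Epithelium-like cells held 36.4 and 58.6 CPM of Tagln, and skeletal muscle-like cells 56.4 and 99.8. In both classes the female value was above the female smooth muscle-like level and the male value below the male one. Myl9 stood at 411 and 244 in smooth muscle-like cells, 619 in the Acta2-led cluster and 252 and 297 in glia and neural crest-like cells. In the GENCODE M21 annotation Tagln overlaps Pcsk7 and Gm48529 on the opposite strand, and Des overlaps Gm15179. Reads of such pairs can be confused unless counting used strand.

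Des, Tpm2 and Synpo2 followed other cells again. Des stood at 60.3 and 20.7 CPM in smooth muscle-like cells but at 248 and 308 in skeletal muscle-like cells. Tpm2 was at 266 and 150 in smooth muscle-like cells, 570 in the Acta2-led cluster and 424 and 679 in skeletal muscle-like cells. Synpo2 was broad: 93.8% of its male and 96.3% of its female UMIs lay in the remaining mesenchyme-like cells (93.1% and 95.4% of all cells), at 41.8 and 45.8 CPM against 95.9 and 113 in smooth muscle-like cells. It was the 1 gene of the 9 that was lower in the Acta2-led cluster, at 11.4, than in the remaining mesenchyme-like cells by more than 1.5-fold.

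**Figure D1:**
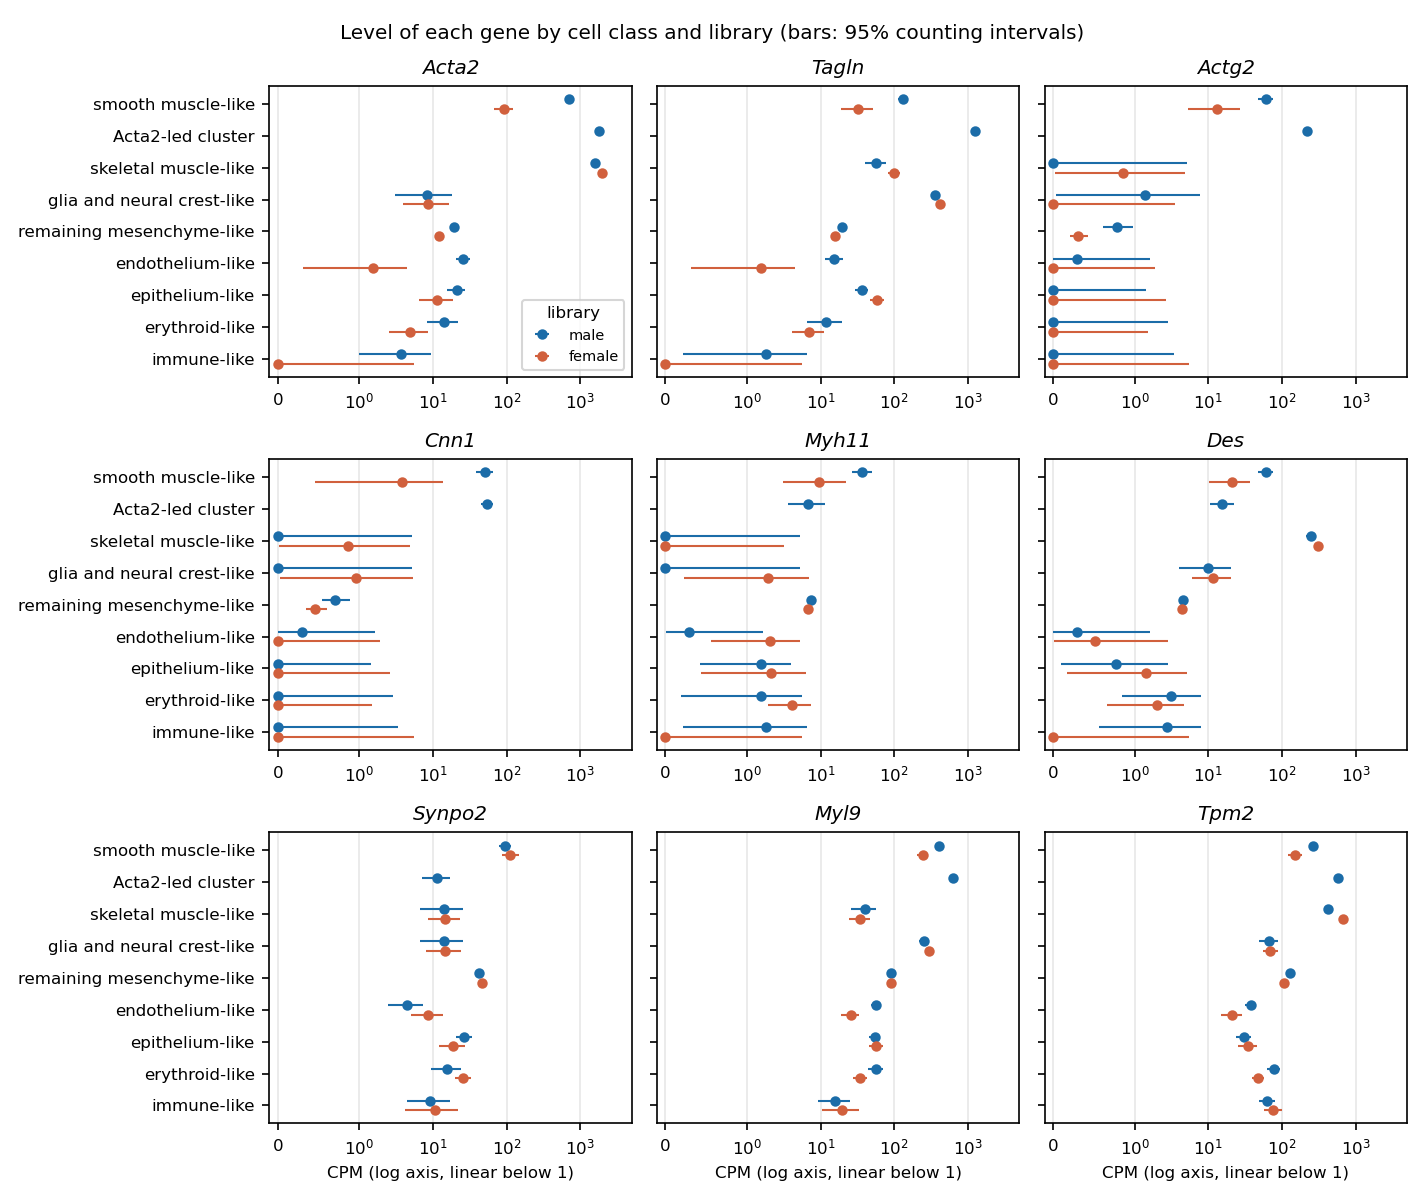
Level of each gene in CPM (x axis, log scale, linear below 1) by cell class (y axis) in the male and female library, with 95% counting intervals. Acta2 is near 2000 in skeletal muscle-like cells and the Acta2-led cluster, while Myh11 is at 0 in skeletal muscle-like cells.

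Against the remaining mesenchyme-like cells, all 9 genes were at least 1.5-fold higher in male smooth muscle-like cells, where 15.1% of 12408 genes were. In the female library 5 of the 7 genes with 100 or more UMIs were (Acta2, Tagln, Des, Synpo2 and Myl9), where 19.2% of 12530 genes were. In the Acta2-led cluster 7 of 9 were, where 15.1% of 12425 genes were. Because the class was named from muscle markers and the cluster set apart by these genes, nothing is read from these counts. The fold of male smooth muscle-like over mesenchyme-like cells ran from 2.07 for Tpm2 to 77.4 for Actg2.

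Myh11 had a different distribution. In smooth muscle-like cells it stood at 36.5 CPM in the male library (43 UMIs, interval 26.4 to 49.2) and at 9.40 in the female library (5 UMIs, interval 3.05 to 21.9). In the Acta2-led cluster it was at 6.72 (13 UMIs), which overlapped the 7.47 and 6.69 of the remaining mesenchyme-like cells. Most of its UMIs, 91.8% male and 97.0% female, lay in those mesenchyme-like cells, which are 93.1% and 95.4% of all cells. The highest of the 18 clusters was cluster 4, which Col8a1, Epha3, Foxf1, Foxl1 and Sall3 also lead, with 542 male and 541 female cells. Its Myh11 level was 54.3 male and 42.1 female CPM, 8.90-fold and 7.17-fold that of the other mesenchyme-like clusters. This cluster was picked by its Myh11 level, so the fold is a description, and the level depends on how the cells were clustered. Over both libraries the highest cluster stood at 48.4 CPM, and under 8 alternatives at 19.4 to 41.7. Cluster 5, led by Col8a1, came next at 24.0 and 22.9.

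The other genes differed less there. Synpo2 was 1.76-fold (male) and 1.79-fold (female) and Myl9 1.29-fold and 1.20-fold the level of the other mesenchyme-like clusters, all with intervals above no difference. Acta2, at 31.5 and 14.8 CPM, was 1.66-fold higher in the male library with an interval above no difference and 1.22-fold in the female library with one that included it. For Des it was the female library that passed, at 2.05-fold against 1.47-fold in the male library. Tagln (19.9 and 13.7 CPM) and Tpm2 had intervals that included no difference in both libraries, and Actg2 was at 0.724 and 0. Of the 12 smooth muscle markers, 5 were higher there than in the other mesenchyme-like clusters in both libraries with intervals above 0. They were Mylk (myosin light chain kinase), Pdlim3, Ppp1r14a, Nexn and Csrp1. The share of all genes with such intervals was not computed, so nothing is read from this count. Smtn was lower in both libraries, and Myocd was at 3.98 and 1.90 in cluster 4, against 3.75 and 3.42 in the other clusters. Synpo2 was highest there too, at 72.0 and 80.4 CPM. Of 100 male cells of cluster 4 with a Myh11 UMI 8% had an Acta2 UMI, and of the 442 without one 8.82% did. In the female library these shares were 9.59% of 73 and 3.21% of 468. Myl9 was found in 52% of male cells with Myh11 against 32.4% of those without, and in 47.9% against 31.4% of female cells, with intervals that are apart in both libraries. For Tagln the shares were 12% against 5.43% and 9.59% against 4.27%, with overlapping intervals.

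The groups are set side by side by their Myh11 UMIs per 100 Acta2 UMIs. The choice of cluster 4 by Myh11 and of the Acta2-led cluster by Acta2 and Tagln fixed in part where these 2 fall. The ratio was 5.12 in male smooth muscle-like cells (interval 3.68 to 6.96) and 10.2 in female ones (3.17 to 25.5). It was 0.375 in the Acta2-led cluster, 172 and 285 in cluster 4, and 38.5 and 55.1 in the remaining mesenchyme-like cells. Skeletal muscle-like cells had 0 Myh11 UMIs beside 1113 and 2289 Acta2 UMIs. For Tagln the ratio was 18.7 and 34.7 in smooth muscle-like cells, 69.0 in the Acta2-led cluster and 3.59 and 5.07 in skeletal muscle-like cells. Barcodes with 100 or fewer UMIs, which hold free RNA, had 19.9 and 30.9 Myh11 UMIs and 61.0 and 63.6 Tagln UMIs per 100 of Acta2.

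The Acta2-led cluster and the smooth muscle-like class differed in which genes were high. Compared with male smooth muscle-like cells, Tagln was 9.28-fold higher there, Actg2 3.59-fold and Acta2 2.52-fold, while Cnn1 was 1.08-fold with an interval that included no difference. Myh11 was 5.43-fold, Des 3.89-fold and Synpo2 8.43-fold lower. The cluster split into 7 sub-clusters of 6 to 43 cells, and its Acta2 lay mostly in 3 of them. Acta2 stood at 2285, 1980 and 4015 CPM in sub-clusters of 43, 29 and 29 cells, and at 72.0 to 245 in the other 4, of 24, 42, 6 and 22 cells. The sub-cluster at 4015, led by Actg2, had Tagln at 2803, Actg2 at 868 and Myh11 at 20.8 CPM. Its mean log2 difference was 1.42 over the pericyte markers, 4 of them with 10 or more UMIs, and 1.22 over the smooth muscle markers, 7 of them with 10 or more. With under 50 cells it was given no name.

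The smooth muscle-like class held 2 sub-clusters. The one led by Tcf21, Acta2, Myocd and Foxl1 (181 male and 112 female cells) had Acta2 at 1006 and 110 CPM and Des at 17.4 and 2.35. The one led by Aldh1a2, Tcf21 and Cldn11 (90 and 24 cells) had Acta2 at 206 and 18.8 and Des at 134 and 94.2. Acta2 and Des were thus highest in different sub-clusters in both libraries, with few female UMIs behind the lower values (2 of Acta2, 1 of Des).

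Single cells showed which genes came together. In male smooth muscle-like cells 86 of 271 had an Acta2 UMI. Of these, 40.7% had Tagln, 33.7% Actg2, 33.7% Cnn1 and 22.1% Myh11, against 5.41%, 3.78%, 2.16% and 2.70% of the 185 cells without Acta2. Des and Synpo2 did not follow Acta2: Des was found in 18.6% and 17.8% and Synpo2 in 36.0% and 30.8%, with overlapping intervals. The median UMIs of cells with and without Acta2 were 4442.5 and 3968. With every cell thinned to 2000 UMIs, 71 cells had Acta2, and Tagln was found in 25.4% of them against 5.50%, and Myh11 in 12.7% against 0.5%.

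Within the male smooth muscle-like class most cells with Myh11 also had Acta2, which was not so over all cells, where 15.2% of male and 10.7% of female cells with a Myh11 UMI had an Acta2 UMI. Of 24 male smooth muscle-like cells with a Myh11 UMI 79.2% had Acta2 (interval 57.8 to 92.9), against 27.1% of the 247 without. In the female library 12 of 136 cells had Acta2, of which 41.7% had Tagln and 25.0% Myh11, against 2.42% and 0.806% of the others. Only 4 female cells had Myh11. In the Acta2-led cluster 91.3% of 126 Acta2 cells had Tagln, 36.5% Actg2 and 7.94% Myh11. Of its 69 cells without Acta2, 52.2% had Tagln and 0 had Actg2 or Myh11. In the remaining mesenchyme-like cells 5.13% of male and 4.45% of female cells had Acta2, and 20.4% and 20.5% of those had Tagln.

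**Figure D2:**
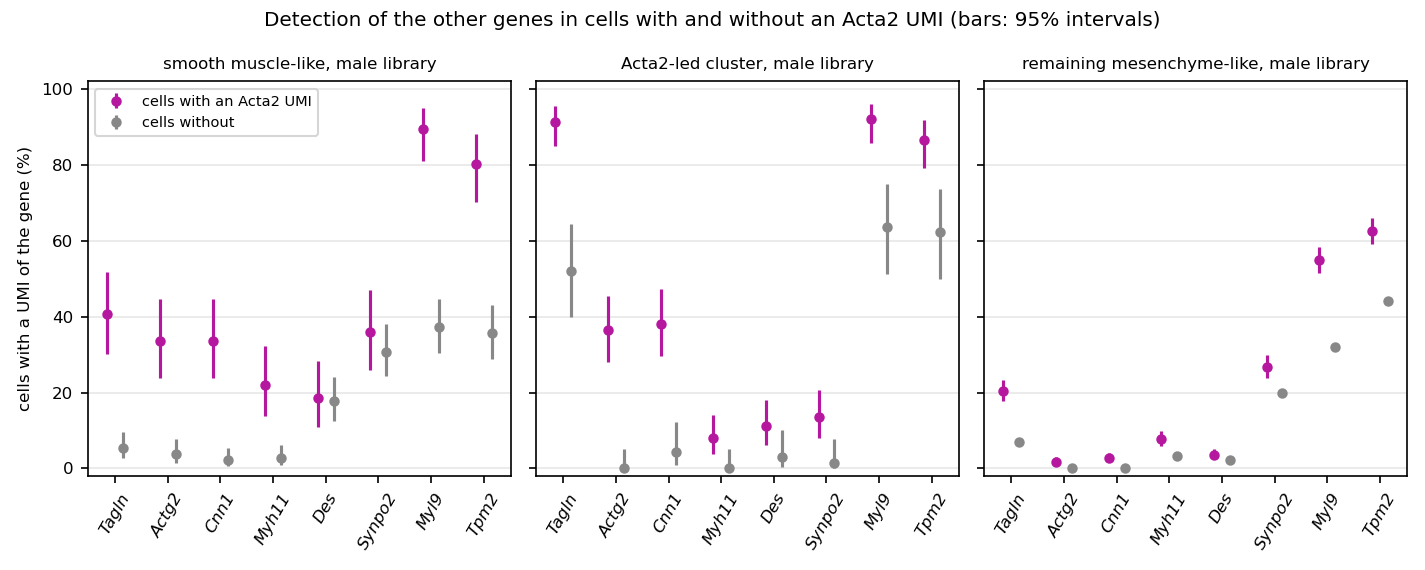
Share of cells with a UMI of each other gene (y axis, %) among cells with and without an Acta2 UMI, in 3 groups of male cells, with 95% intervals. In smooth muscle-like cells Tagln, Actg2, Cnn1, Myh11, Myl9 and Tpm2 are apart between the 2 kinds of cell, while Des and Synpo2 overlap.

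The 28 smooth muscle-like cells with a Myh11 UMI, 24 male and 4 female, were compared with the class's other cells over both libraries together. Genes higher in the male library gain from this pooling. Among 4984 genes, the 8 with the highest ratio over cells without Myh11 included 6 of the other 8 genes: Tagln (664 against 49.2 CPM), Actg2 (267 and 24.9), Acta2 (3003 and 288), Cnn1 (157 and 24.9), Myl9 (1136 and 286) and Tpm2 (636 and 192). The remaining 2 were Spock3 and Ogn. Genes entered with 50 or more UMIs over both kinds of cell together. Actg2 (39 UMIs with and 39 without Myh11) and Cnn1 (23 and 39) reached that only by the sum. No share of all genes stands beside the count of 6, so nothing is read from it. Median UMIs of cells with and without Myh11 were 4784.5 and 4034 in the male library, and 4028 and 3679 in the female. Des differed by 0.88 on the log2 scale and Synpo2 by -0.09, both with intervals that include 0. The 8 lowest genes had 0 UMIs in these 28 cells. Within the male library Acta2 was at 3203 against 404 CPM, Tagln at 693 against 63.9, Actg2 at 300.3 against 30.5, Cnn1 at 169 against 36.2, Myl9 at 1078 against 328 and Tpm2 at 647 against 218. In the 4 female cells Acta2 was at 1413 against 50.4, Tagln at 430 against 19.4, Cnn1 at 61.4 against 1.94, Myl9 at 1597 against 202 and Tpm2 at 553 against 138, while Actg2 was at 0 against 13.6. Synpo2 was at 61.6 against 100.1 in the male library and at 368 against 105 in the female library.

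Myocd, Mylk and Lmod1, all among the markers that named the class, also differed with Acta2 inside the male smooth muscle-like cells. Of the regulators and partners only the genes given here were split this way, without intervals. Cells with an Acta2 UMI had Myocd at 201 CPM and Mylk at 380, against 65.3 and 105 in cells without. Lmod1, leiomodin, was at 47.8 and 3.84. The regional transcription factors Foxf1 (523 and 411) and Tcf21 (370 and 334) differed less. In the female library Myocd was at 95.5 and 73.0, Mylk at 191 and 79.2 and Lmod1 at 38.2 and 0. These rest on 5, 10 and 2 UMIs in the 12 female cells with Acta2. Female Foxf1 was at 535 and 538 and Tcf21 at 287 and 313.

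The lists of related genes were described by counts. Of 29 measured contractile partners, 15 were at least 1.5-fold higher and 2 lower in male smooth muscle-like than in remaining mesenchyme-like cells, and 8 and 3 in the female library. Over all genes 15.1% were higher and 16.6% lower in the male library, and 19.2% and 21.5% in the female library. Ppp1r14a, an inhibitor of myosin phosphatase, was at 255 and 224 against 27.1 and 19.8. Of 19 regulators, 4 were higher and 4 lower in the male library, and 5 and 6 in the female library. Higher in both libraries were Myocd (111 and 75.2 against 3.76 and 3.38) and Tcf21 (346 and 310 against 12.3 and 9.13). Foxf1 was too (449 and 538 against 41.5 and 45.0). Tbx18 (2.55 and 1.88 against 25.6 and 33.2) and Gata6 (4.24 and 1.88 against 18.3 and 18.5) were lower. Klf5 and Prrx1 were also lower in both libraries. In the Acta2-led cluster Gata6 was instead at 194 and Foxf1 at 11.4. Myocd, Ppp1r14a, Mylk, Smtn, Nexn, Csrp1 and Pdlim3 were among the markers that named the class. The partner and regulator counts are thus fixed in part by the naming, and nothing is read from them. Of the 20 tropomyosin, calponin and myosin paralogues, 7 of them members, 10 were higher and 4 lower in the male library, and 4 and 4 of 19 in the female library, where the shares of all genes are 19.2% and 21.5%. Of the pericyte genes, Cspg4 was at 6.79 and 7.52 CPM against 3.99 and 3.55, from 12 UMIs and with an interval over both libraries that includes no difference. Of the skeletal muscle list 2 were higher and 2 lower of 4 measured in the male library, 2 and 3 of 5 in the female. Of the actins, the cytoplasmic Actb stood at 4735 (male) and 3895 (female) CPM against 4778 and 4855 in remaining mesenchyme-like cells, and Actg1 at 3698 and 3324 against 3987 and 4217. The skeletal and cardiac Acta1 and Actc1 were at 0 in smooth muscle-like cells.

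Within the 18 mesenchyme-like clusters the genes peaked in different places. Acta2 was highest in cluster 5 in the male library (45.9 CPM) and in cluster 15, led by Mab21l2 and Angpt2, in the female library (28.1). Tagln was highest in cluster 15 in the male library (44.9) and cluster 16, led by Dlx6os1 and Prss35, in the female library (47.5, with cluster 15 next at 44.7). Des was highest in cluster 3, led by Tcf21 and Aldh1a2, at 13.6 and 16.0, and Synpo2 in cluster 4. Cluster 9, led by En1, Sox9 and Scx, was lowest for Tpm2 and Synpo2 in both libraries, with Tpm2 at 51.3 and 52.2. Myl9 and Tpm2 varied least, their highest cluster being 1.28-fold to 1.49-fold the median cluster, against 14.6-fold and 12.0-fold for Myh11.

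**Figure D3:**
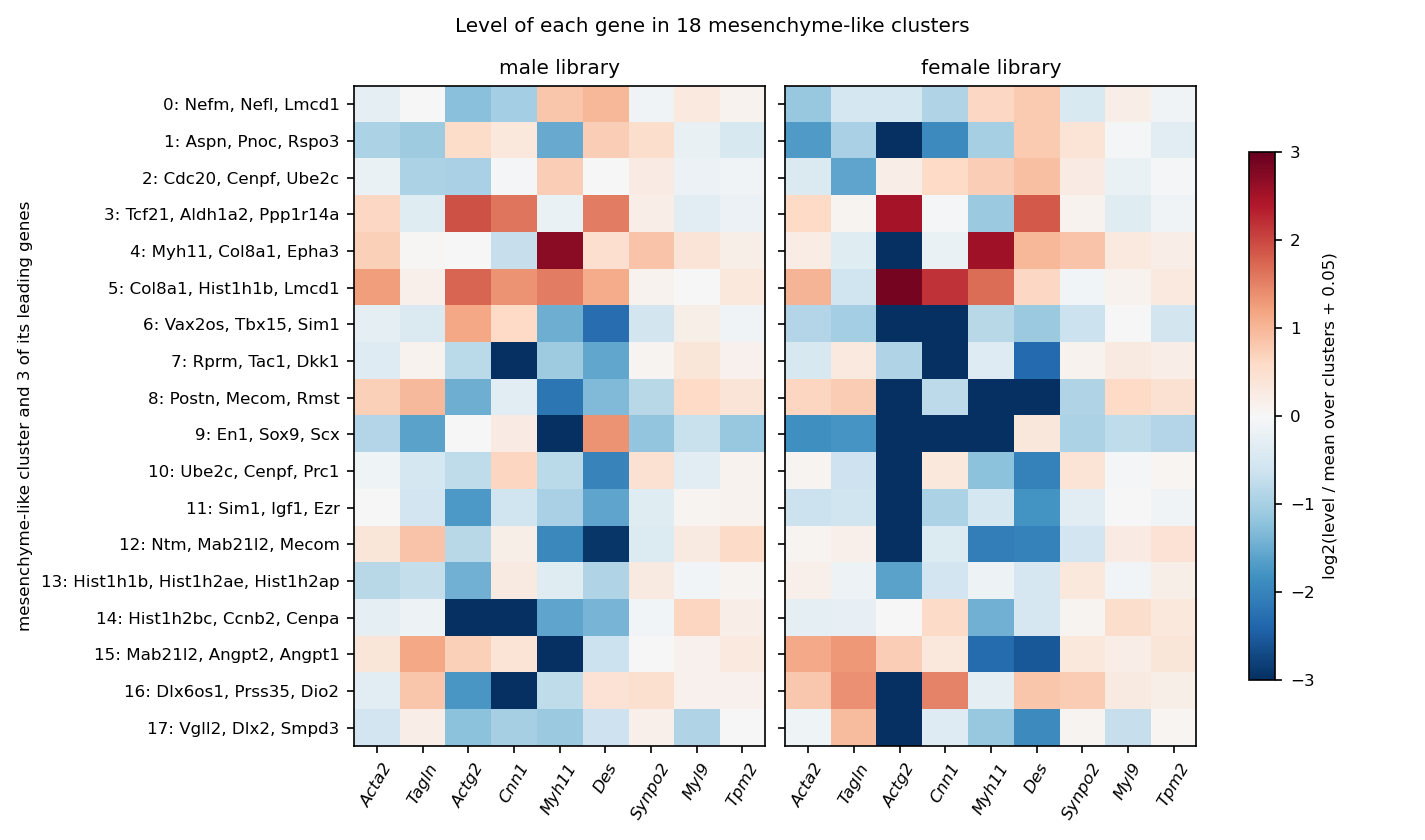
Level of each gene (columns) in 18 mesenchyme-like clusters (rows, with 3 of their leading genes) as log2 of the level over the mean of the clusters plus 0.05, by library. Myh11 stands out in cluster 4 in both libraries, while dark blue squares of Actg2, Cnn1 and Myh11 rest on few or 0 UMIs.

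Log2 levels (with 5 CPM added) were correlated across 48 clusters within a library, 36 of them mesenchyme-like. These are clusters of the first round, so the mesenchyme-like ones still hold the smooth muscle-like cells. Clusters share their library and differ in depth, so r is a description. Pearson's r was 0.98 between Actg2 and Cnn1, and 0.93 over the 36 mesenchyme-like ones. Acta2 was at 0.75 with Tpm2, 0.70 with Cnn1, 0.69 with Actg2, 0.66 with Des, 0.62 with Tagln and 0.11 with Myh11, and over the 36 at 0.61, 0.76, 0.76, 0.29, 0.61 and 0.30. Myh11 was closest to Synpo2 among the 9, at 0.55 and 0.50. Single clusters weigh on the values of Actg2 and Cnn1, and on those of Acta2 with them. Of the 36, cluster 3 of the male library stood at 13.4 CPM of Actg2, 10.9 of Cnn1 and 155 of Acta2. The next highest were 3.07, 2.06 and 45.9. Of the 48, the Acta2-led cluster stood at 216 of Actg2 and 54.8 of Cnn1. The r values without these clusters were not computed. Among 12909 genes the pattern most like that of Myh11 was that of Nos1 (0.91), Foxl2 (0.90), Uts2b (0.88), Sall3 (0.86) and Foxd1 (0.84). Over the 36 mesenchyme-like ones these 5 were at 0.84 to 0.93. For Actg2 it was Cnn1, Pamr1 (0.84), Loxl1 (0.82), Dlg2 (0.78) and Col9a1 (0.76), of which the last 4 fell to 0.52, 0.18, 0.17 and 0.34 over the 36. For Acta2 it was 1810041L15Rik (0.84), Jsrp1 (0.79), Tpm2 (0.75), Myl4 (0.73) and Kcnma1 (0.72), which fell to 0.47, 0.45, 0.61, 0.06 and 0.47.

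The male library held more of 4 genes. Over all cells Acta2 was higher by 1.17 on the log2 scale, Tagln by 1.15, Actg2 by 3.88 and Cnn1 by 2.21, and these 4 of the 9 passed 1.5-fold, as did 4.57% of 13933 genes. Myh11 (0.17), Myl9 (0.17), Tpm2 (0.30), Des (-0.10) and Synpo2 (-0.16) did not. In mesenchyme-like cells with the Acta2-led cluster counted in, the same 4 passed, as did 1.83% of 13423 genes, with Acta2 at 2.15, Tagln at 1.45, Actg2 at 4.01 and Cnn1 at 1.92. Without that cluster Acta2 was at 0.67 (interval 0.57 to 0.77), Actg2 at 1.34 and Cnn1 at 0.59, and these 3 passed, as did 1.48% of 13391 genes. Tagln was then at 0.30. The 195 cells of that cluster held 3469 of the 5361 male Acta2 UMIs of the wider class. For these counts the limit of 100 UMIs was summed over both libraries. Over all cells Actg2 had 567 male and 44 female UMIs and Cnn1 235 and 58. With the Acta2-led cluster they had 494 and 36, and 174 and 54. There they reached the limit through the male library. Without that cluster they had 76 and 36, and 68 and 54, and reached it only by the sum. Nothing is therefore read from how many of the 9 passed.

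By cluster, Acta2 was higher in the male library in 15 of 18 mesenchyme-like clusters, 13 of them with an interval above 0 and 2 clusters with an interval below 0. Tpm2 was higher in 17 of 18, with 12 intervals above 0 and 0 below. Tagln was higher in 13 of 18, with 6 intervals above 0 and 3 below. Synpo2 was higher in 2 of 18, with 0 intervals above 0 and 3 below. In the remaining mesenchyme-like cells 63 male and 40 female cells with 5 or more Acta2 UMIs held 44.5% and 29.1% of its UMIs there. Free RNA moved the same way: barcodes with 100 or fewer UMIs had Acta2 at 54.6 male and 22.9 female CPM and Tagln at 33.3 and 14.6. Those values are above the remaining mesenchyme-like Acta2 levels, and their part in the difference was not tested.

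In smooth muscle-like cells 4 of the 5 genes with 100 or more UMIs passed 1.5-fold (Acta2, Tagln, Myl9 and Tpm2), as did 3.50% of 2713 genes. The 100 UMIs were summed over both libraries, and the male class held 1178350 UMIs against 531942. Acta2, Tagln and Tpm2 had 49, 17 and 80 female UMIs and reached the limit through the male library. Nothing is therefore read from this count. Acta2 was higher in the male library by 2.95 on the log2 scale (interval 2.54 to 3.40), Tagln by 2.06, Tpm2 by 0.82 and Myl9 by 0.75. Synpo2 was at -0.23, with an interval from -0.70 to 0.24. Myh11 (1.96), Actg2 (2.19), Cnn1 (3.76) and Des (1.54) rest on 11 or fewer female UMIs each. Myocd was higher by 0.56, Tcf21 by 0.16, while Foxf1 was at -0.26. In the male class 45 cells with 5 or more Acta2 UMIs held 89.3% of its UMIs, and in the female class 4 such cells held 65.3%. Median UMIs were 4076 and 3701 per cell, and thinned to 2000 UMIs 26.2% of male and 6.62% of female cells had an Acta2 UMI. Without thinning the shares were 31.7% and 8.82%. Immune-like cells had an Acta2 UMI in 2.17% of 92 male and 0% of 56 female cells (interval up to 6.38). Their median depths were higher, at 10766 and 12055 UMIs, and the male share rests on 4 Acta2 UMIs. Erythroid-like cells had one in 4.70% and 2.66%, at 7945 and 8805 UMIs. The part of free RNA in the smooth muscle-like difference was not tested.

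**Figure D4:**
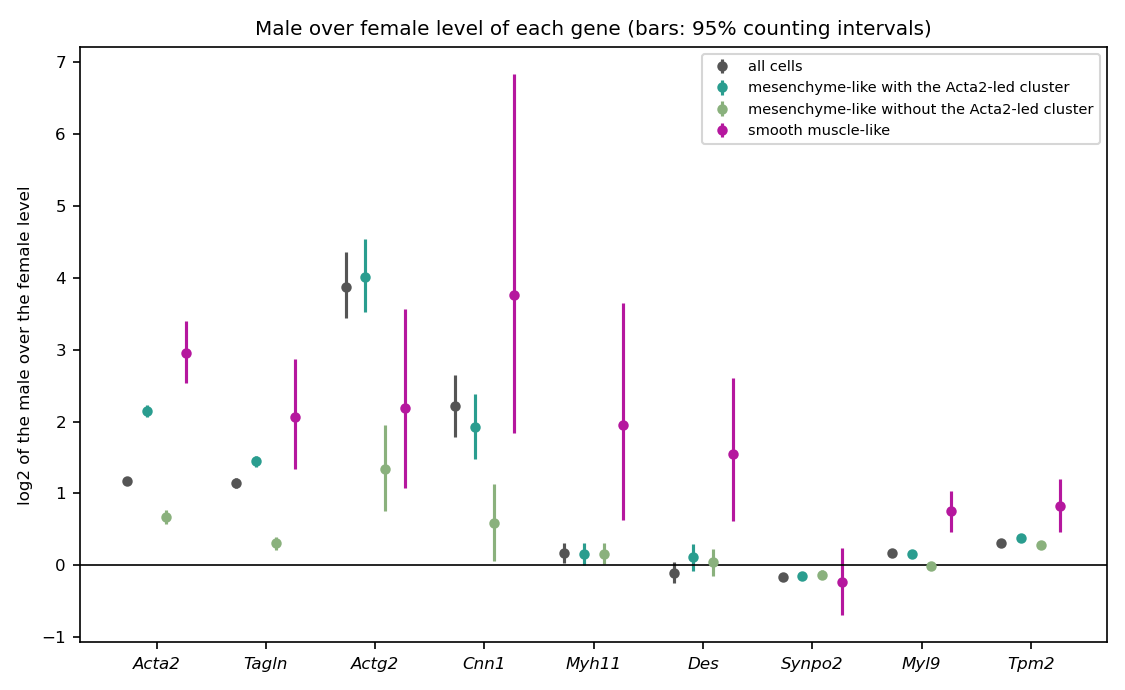
Male over female level of each gene on a log2 scale (y axis) in all cells, in mesenchyme-like cells with and without the Acta2-led cluster, and in smooth muscle-like cells, with 95% counting intervals. Acta2 drops from 2.15 to 0.67 in mesenchyme-like cells without that cluster and reaches 2.95 in smooth muscle-like cells.

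Known regulatory motifs were looked for in the 250 bases before the start of each gene in RefSeq (GRCm38.p6), where 6 of the 9 genes had an entry. A CArG box, the site that serum response factor binds, was found in 1 of these 6 (Myl9), and in 1.47% of 32851 windows of that length. With 1 departure from the consensus it was found in 2 (Acta2 and Myl9), and in 17.5% of windows. CATTCC, the core that TEAD factors bind, was found on either strand in 1 (Acta2), and in 12.6% of windows. The matches are printed 5′ to 3′ on the gene's strand, with the matched bases in capitals, and are shown because serum response factor and its coactivator myocardin are the known drivers of this gene set.
Acta2 CArG with 1 departure, chr19:34255438-34255467, minus strand: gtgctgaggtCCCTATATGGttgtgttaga
Acta2 CArG with 1 departure, chr19:34255388-34255417, minus strand: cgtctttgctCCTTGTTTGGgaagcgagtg
Acta2 CATTCC on the other strand, chr19:34255502-34255531, minus strand: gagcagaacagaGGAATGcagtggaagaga
Myl9 CArG box, chr2:156775293-156775322, plus strand: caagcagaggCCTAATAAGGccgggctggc
Myl9 CArG with 1 departure, chr2:156775355-156775384, plus strand: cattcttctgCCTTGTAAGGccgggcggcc
GENCODE M21 places the 3 Acta2 matches in an annotated exon of a longer transcript and the Myl9 matches before the annotated exons. The matches are a description of these letters and not of bound sites.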

How the data were processed

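Single-cell RNA sequencing of dissociated genital tubercles was deposited as 1 male and 1 female library made with a 3′ kit of version 3.1. Per the submitters' processing notes, the authors used Cell Ranger 3.1 and the mm10 build, and the deposited values are raw UMI counts per gene and barcode for all 6794880 barcodes, with no cells called and no normalization. No annotation version or strand setting is given in the sources used here. The libraries hold 130105692 male and 144515562 female UMIs, of which the kept cells hold 110547738 and 126274554.

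For clustering, each cell's counts were brought to a total of 10000 and logged, and 1983 of 2000 variable genes, without the 9 members (all variable), entered 30 principal components, 15 neighbours and Leiden clustering at resolution 1 with seed 0 (scanpy 1.11.5, python-igraph 0.11.9). This gave 25 clusters. A name other than mesenchyme needed a mean log2 difference of at least 1 over a class's markers, with 5 CPM added. It also needed 3 markers with 10 or more UMIs that were higher there than in the other cells. Mesenchyme-like was the name left to clusters that took no other, and it needed no such rise. In cluster 7, for example, the mean over the mesenchyme markers was -0.65. Mesenchyme-like clusters were clustered again and sub-clusters of 50 or more cells were named, a step added after the data were seen. Of the mesenchyme-like clusters, 4 have a marker of another class among their 10 leading genes (clusters 0, 3, 15 and 17), so that class is also described by cluster. Scrublet's automatic call, at 0 cells per library, failed. Doublets were not removed, and removing the highest scores was an alternative.

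The limit on genes removed 373 male and 470 female barcodes and the mitochondrial limit 922 and 889. Ratios have exact conditional intervals for 2 Poisson counts and shares exact Clopper-Pearson intervals (scipy 1.17.1). Only the ratio intervals and the 1.5-fold call were tested on simulated data. Those were Poisson counts without the spread between cells that these data have. A share of 0 is given the limit that 3 counts allow. A gene passed at 1.5-fold with 100 or more UMIs in both groups together, and ratios by cluster needed 20. No test was made. The members and gene lists were chosen with earlier results of these data known. All 9 members are named, with up to 6 genes of each list by the size of the log2 ratio of smooth muscle-like over mesenchyme-like cells, of which a part is printed. Up to 5 genes most like Acta2, Actg2 and Myh11 and 8 genes on either side of the Myh11 split were named by rank.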

Additional observations from a re-analysis of the deposited data

Results flagged for a closer look

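For some genes the male over female difference had opposite directions in 2 groups of cells, each with a counting interval on its own side of 0, and the difference between the groups was not tested. Values are log2 of the male over the female level. Acta2 was at 1.69 in mesenchyme-like cluster 9 (27 male and 6 female UMIs) and at -0.58 in cluster 16 (79 and 123). Tagln was at 0.95 in cluster 5 and -0.64 in cluster 17, and at 3.32 in endothelium-like against -0.69 in epithelium-like cells. The endothelium-like value rests on 52 male and 3 female UMIs, and 2 male cells held 78.8% of the 52. Des was at 1.10 in cluster 9 (33 and 11 UMIs) and -0.85 in cluster 2, led by cycling genes (39 and 109). Myl9 was at 0.21 in cluster 6 and -0.28 in cluster 10, the smallest of these differences. With 18 clusters and 9 genes, some intervals lie on 1 side of 0 by counting error alone.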

How the results depend on the processing

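No paired analysis was possible because there is 1 library per sex. The smooth muscle-like share of cells depended on the settings, though where the class was found it was larger in the male library. It was 0.834% male and 0.536% female with a minimum of 1000 UMIs, 2.39% and 1.55% with 5000, 0.861% and 0.365% with the highest doublet scores removed, 2.39% and 1.66% at Leiden resolution 0.5, 1.20% male at resolution 2, 1.07% and 0.353% with the members kept in the clustering, and 0.997% and 0.289% with seed 1. It was 0 in both libraries after the first round alone and under a mitochondrial limit of 5%, where only 2336 cells were left. The Acta2-led cluster was 2.03% of male cells with a minimum of 5000 UMIs, 3.76% under the 5% mitochondrial limit, and 6.56% of male and 4.39% of female cells at resolution 0.5, where it merged with other cells. It was 0.0416% of female cells with a minimum of 1000 UMIs. These alternatives for the Acta2-led cluster, and those that leave out clusters, were chosen after seeing the data.

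Smooth muscle-like cells held 10.5% of male Acta2 UMIs with a minimum of 1000 UMIs, 10.0% male and 4.00% female with 5000, 12.5% male with high doublet scores removed and 9.43% male with seed 1. Under the 5% mitochondrial limit they held 0 in both libraries. The Acta2-led cluster held 47.8%, 53.5%, 54.9%, 47.8% and 48.4% of male Acta2 UMIs with a minimum of 1000 UMIs, with 5000, with doublet scores removed, at resolution 2 and with the members kept. Of female Acta2 UMIs it held 0.444% with 1000 UMIs and 2.97% at resolution 0.5. The share of all Acta2 cells with Tagln was 31.0% male and 24.0% female. It became 35.1% male with 5000 UMIs, 48.2% and 43.3% under the 5% mitochondrial limit, and 25.3% and 14.5% with cells thinned to 2000 UMIs.

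In mesenchyme-like cells, 4 members were 1.5-fold higher in the male library. Thinning left 2, with fewer genes at 100 UMIs. Weighting clusters alike, which leaves out a cluster of 1 library, left 1. Leaving out the Acta2-led cluster and the 4 clusters led by a marker of another class also left 1. The Acta2 difference there ranged from 0.57 to 3.37 over 15 alternatives and stayed above 0. In smooth muscle-like cells it ranged from 1.98 to 3.67 over 7. The Myh11 level of the highest mesenchyme-like cluster, 48.4 CPM over both libraries, was lower under each of the 8 alternatives run, at 19.4 (resolution 0.5) to 41.7 (highest doublet scores removed). No called value changed sign, and the cause of these shifts was not tested. Over all results, 480 of 698 single values and 60 of 104 comparisons stayed within their interval or 1.5 times the count. Depth limits Cnn1, Myh11 and Actg2 in female smooth muscle-like cells, which rest on 2, 5 and 7 UMIs.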
